A study of Mus musculus with 8 samples.

Results

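Imprinted genes were followed in RNA sequenced from mouse peripheral retina with and without the histone methyltransferase gene Ezh2. The set names 34 genes known to be expressed mainly from the allele inherited from the father (22 genes) or from the mother (12 genes). Of these, 30 have a row among the 16096 genes of the deposited table, and Airn, Kcnq1ot1, Peg13 and Phlda2 were not analysed here. The genes were chosen by name, with earlier results of these data known, and grouped from textbook knowledge into 19 imprinted clusters. The tissue is the peripheral retina of C57BL/6 embryos at embryonic day 16.5. The conditional knockout libraries (cKO, n = 4) carry Pax6alpha-Cre with 1 floxed Ezh2 allele (flanked by loxP sites, where Cre cuts) and 1 null allele. The control libraries (n = 4) carry Pax6alpha-Cre with the same floxed allele and a wild-type allele.

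Both genotypes therefore carry Cre, and cells in which Cre acts have lost the floxed allele in both. The alpha element of Pax6 drives Cre in the peripheral retina, so cells that it does not reach keep a functional floxed allele in both genotypes and carry the null allele in the cKO alone. The libraries hold the whole dissected tissue, in which fewer cells of a type and less RNA per cell cannot be told apart. The labels name no litter or embryo, and p-values therefore rest on the spread between libraries, whatever its source. The whole-gene count of Ezh2 was 251 ± 23.1 CPM (counts scaled to library size) in the cKO libraries and 217 ± 18.1 CPM in the control libraries (SD, n = 4 each). That count covers exons inside and outside the floxed part and does not check the deletion, so each direction given here rests on the genotype labels. All 13 retina markers listed, among them Rax, Six3 and Lhx2, were present in every library. Total counts ran from 13994825 to 18391647 per library. Counts of Xist and Y-linked genes marked cKO replicates 2 and 3 as female and the other 6 libraries as male, so sex is unevenly spread over the genotypes.

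An imprinted gene carries a mark from the egg or the sperm, in most cases DNA methylation at an imprinting control region, that leaves 1 parental copy active and the other silent. Imprinted genes lie in clusters, in which 1 control region can set the state of several genes, often through a long noncoding RNA or an insulator. Several encode growth regulators, and those expressed from the paternal copy, such as Igf2, tend to promote growth where those expressed from the maternal copy, such as Igf2r and Grb10, restrain it. EZH2 is the enzyme of Polycomb repressive complex 2, which trimethylates lysine 27 of histone H3. That mark helps to silence some imprinted genes in the placenta and is the maternal mark of a small noncanonical group that includes Slc38a4 and Sfmbt2. The reads were not divided by allele, so every value here is the sum over both parental copies, and the parental allele given for a gene is what is known of it elsewhere.

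Most imprinted genes that changed rose in the cKO retina, and the changes were largest for Igf2os, Asb4, Dlk1 and Igf2. All 30 imprinted genes passed the filter on low counts, and 10 of them were higher and 2 lower in the cKO (edgeR quasi-likelihood test, p adjusted by Benjamini-Hochberg over 15014 genes, threshold 0.05). Over all genes tested, 8.35% were higher and 3.46% lower. The set was chosen with earlier results known, so its share was not tested against that of all genes. The 10 that rose were Igf2, Igf2os, Dlk1, Meg3, Rian, Mest, Peg10, Asb4, Magel2 and Nap1l5, and the 2 that fell were Grb10 and Plagl1. The median log2 fold change, cKO over control, was 0.16 over the 30 imprinted genes and -0.01 over all genes tested. The 4 cKO and 4 control libraries did not overlap for 8 imprinted genes that were higher and 2 that were lower, where 10.1% and 6.21% of all genes tested were separated in these directions. Of the 12 calls, 9 were made under all 17 alternative settings, and the exceptions were Dlk1, Meg3 and Nap1l5.

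**Figure D1:**
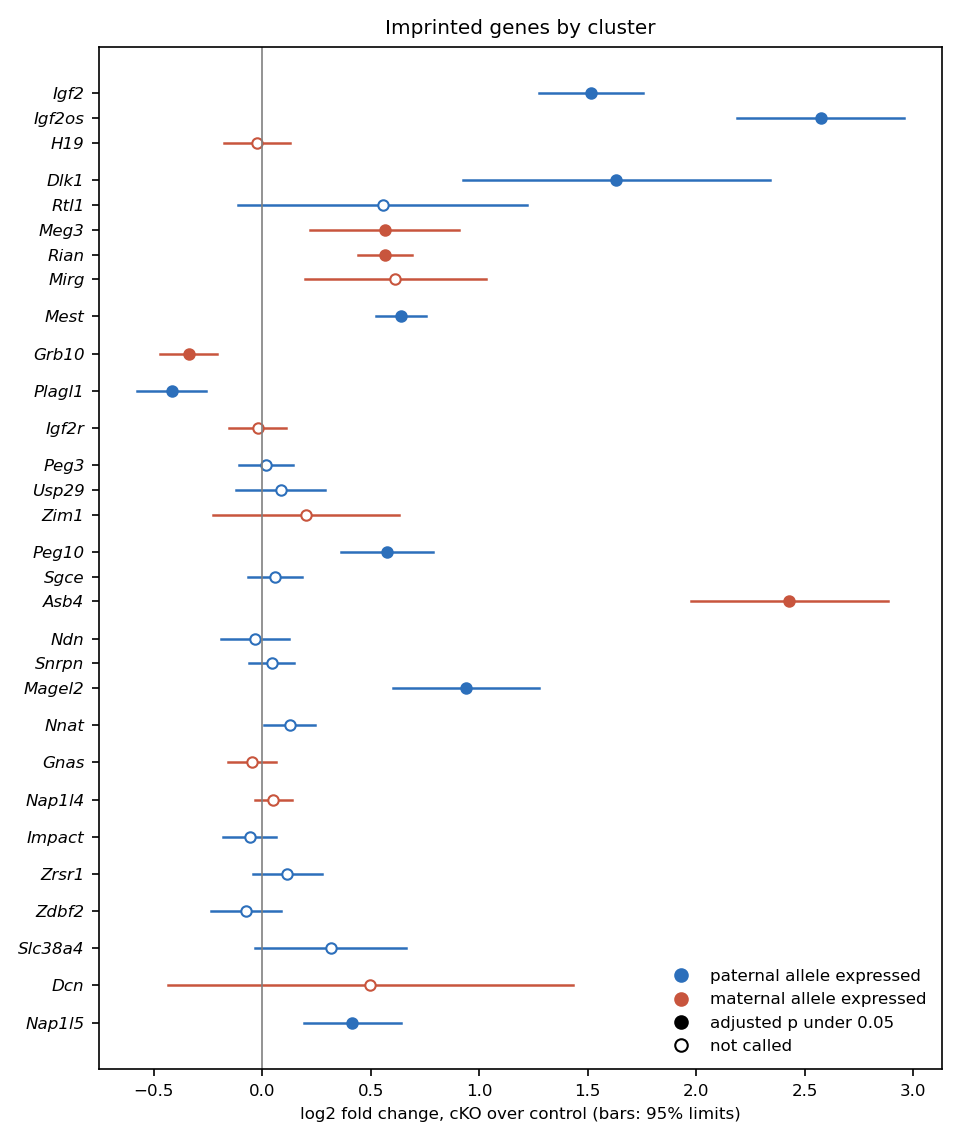
Log2 fold change, cKO over control, of the 30 imprinted genes in the deposited table, grouped by cluster from top to bottom. Points are edgeR estimates from 4 cKO and 4 control libraries, bars are 95% limits, colour is the parental allele known to be expressed, and filled points passed an adjusted p of 0.05. Igf2os (2.57) and Asb4 (2.43) lie farthest to the right, while Plagl1 (-0.42) and Grb10 (-0.34) are the 2 filled points left of 0.

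Both parental classes contained genes that rose and a gene that fell. Of 19 paternally expressed genes tested, 7 rose (Igf2, Igf2os, Dlk1, Mest, Peg10, Magel2 and Nap1l5), Plagl1 fell and 11 were not called. Of 11 maternally expressed genes tested, 3 rose (Meg3, Rian and Asb4), Grb10 fell and 7 were not called. The median log2 fold change was 0.13 for the paternally expressed genes and 0.20 for the maternally expressed genes. Grb10, Igf2r, Gnas, Nap1l4 and Dcn are imprinted in some tissues only or switch allele between tissues. Without them 6 maternally expressed genes were left, of which 3 rose and none fell in the edgeR test, with a median of 0.56. Meg3, Rian and Mirg among these are of the same cluster, Dlk1-Meg3 (log2 fold changes of 0.56, 0.56 and 0.61). The others were H19 (-0.02), Zim1 (0.20) and Asb4 (2.43), so the median largely describes that cluster. The difference between the parental classes was not tested.

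By cluster, and counting the genes of this set alone, 8 of the 18 clusters with a tested gene held a gene that changed. Kcnq1ot1 is not among these 8, although Cdkn1c, a gene of that cluster outside the set, rose (described below). Igf2-H19, Dlk1-Meg3, Peg10-Sgce and Snrpn-Ndn each held genes that rose beside genes that were not called. The other 4 clusters with a changed gene are represented here by that gene alone (Mest, Nap1l5, Grb10 and Plagl1). No cluster with several tested genes had all of them called.

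The start of 25 of the 34 genes was matched to a RefSeq promoter window of 300 bases (250 before and 50 after the start, build GRCm38.p6). For every gene with several windows, the window with the most CpG dinucleotides was used. ZFP57, the zinc finger protein that keeps DNA methylation at imprinting control regions, binds the hexamer TGCCGC when its CpG is methylated, and this hexamer was searched on both strands (GCGGCA on the other). It was present in 8 of the 25 windows and in 12.2% of 27025 windows of all genes. The hexamer holds a CpG and the 25 windows have more CpG (median 13 against 8), for which this comparison makes no allowance. Among the genes called, it was in 3 of 8 windows of genes that rose and in both windows of genes that fell. It was in 3 of 12 windows of genes that were not called (Nnat, Snrpn and Zim1). The windows were chosen by gene start and CpG, not as imprinting control regions, and which of them lie in such a region was not tested. A match describes these letters in this window and shows neither binding nor methylation, and methylation was not measured. The 5 windows of called genes that hold the hexamer are shown 5′ to 3′ on the strand of the gene, with the hexamer in capitals.
Mest, chr6:30737800-30738099, plus strand: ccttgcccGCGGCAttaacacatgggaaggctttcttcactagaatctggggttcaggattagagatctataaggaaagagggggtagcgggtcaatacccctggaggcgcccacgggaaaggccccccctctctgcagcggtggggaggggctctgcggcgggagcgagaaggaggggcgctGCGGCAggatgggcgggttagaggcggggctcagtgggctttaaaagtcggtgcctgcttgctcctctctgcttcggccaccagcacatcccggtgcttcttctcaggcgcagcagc
Nap1l5, chr6:58907077-58907376, minus strand: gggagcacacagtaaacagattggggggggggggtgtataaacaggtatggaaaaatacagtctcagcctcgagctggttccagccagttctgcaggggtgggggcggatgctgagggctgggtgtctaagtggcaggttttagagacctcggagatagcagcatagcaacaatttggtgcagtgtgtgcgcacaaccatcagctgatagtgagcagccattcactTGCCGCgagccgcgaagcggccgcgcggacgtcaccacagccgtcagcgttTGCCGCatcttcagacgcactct
Meg3, chr12:109540746-109541045, plus strand: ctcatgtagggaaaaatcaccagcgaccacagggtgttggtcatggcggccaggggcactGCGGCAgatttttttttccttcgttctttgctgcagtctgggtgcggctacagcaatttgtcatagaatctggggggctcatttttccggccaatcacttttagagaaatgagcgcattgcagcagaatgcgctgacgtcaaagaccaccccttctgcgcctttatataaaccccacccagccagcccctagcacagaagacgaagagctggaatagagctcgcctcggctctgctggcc
Grb10, chr11:12037371-12037670, minus strand: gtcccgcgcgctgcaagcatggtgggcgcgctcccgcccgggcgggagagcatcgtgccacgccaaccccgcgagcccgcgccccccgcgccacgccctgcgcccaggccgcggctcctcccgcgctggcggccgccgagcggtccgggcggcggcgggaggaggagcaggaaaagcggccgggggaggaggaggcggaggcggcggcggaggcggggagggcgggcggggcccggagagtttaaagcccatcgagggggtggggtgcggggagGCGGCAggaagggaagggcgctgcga
Plagl1, chr10:13090582-13090881, plus strand: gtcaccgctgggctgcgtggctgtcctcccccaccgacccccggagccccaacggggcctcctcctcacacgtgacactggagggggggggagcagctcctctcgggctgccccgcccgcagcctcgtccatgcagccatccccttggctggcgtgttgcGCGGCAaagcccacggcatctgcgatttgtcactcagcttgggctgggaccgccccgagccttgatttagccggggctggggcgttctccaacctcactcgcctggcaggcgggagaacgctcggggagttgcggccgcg
Mest and Nap1l5, both paternally expressed and both higher in the cKO, each hold 2 copies, while Meg3, Grb10 and Plagl1 hold 1 each. The Grb10 window has 45 CpG dinucleotides and the Plagl1 window 26, against medians of 13 over the 25 windows and 8 over all genes.

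The Igf2-H19 cluster on mouse chromosome 7 held neighbours that differed in their response. Igf2, the fetal growth factor expressed from the paternal copy, and its antisense transcript Igf2os both rose in the cKO retina, while H19, the maternally expressed noncoding RNA next to them, did not pass the test. Igf2 and H19 are known to share enhancers, and an insulator between them that binds CTCF on the maternal copy decides which of them the enhancers reach. Igf2 (chr7:142650766-142666816, mm10) had 77.3, 83.5, 92.1 and 106 CPM in cKO replicates 1 to 4, against 34.5, 33.1, 23.9 and 33.9 CPM in control replicates 1 to 4. Every cKO library was well above every control library. This is a log2 fold change of 1.52 (SE 0.11), or 2.86-fold, with an edgeR adjusted p of 5.55e-07.

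Igf2os (chr7:142659693-142670356) had 6.45, 5.43, 6.76 and 7.35 CPM in the cKO libraries, against 1.498, 1.11, 0.772 and 1.00 CPM in the control libraries. Its groups were far apart, and its log2 fold change of 2.57 (SE 0.18, edgeR adjusted p = 3.11e-07) was the largest of the 30 genes. In counts it had 420 reads over the cKO libraries and 66 over the control libraries, against 5764 and 1916 for Igf2. The ratio of Igf2os to Igf2 counts was 0.0727 ± 0.00792 in the cKO libraries and 0.0347 ± 0.00603 in the control libraries (SD, n = 4 each), without overlap. The transcripts lie on opposite strands and share 98 exon bases, 1.71% of the Igf2 exons, and much of the Igf2os span lies within that of Igf2. Whether strand was used in counting is not given by any source used here. At the Gnas locus, described below, reads were counted for genes on both strands. The part of Igf2 RNA in the Igf2os count was not tested.

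H19 (chr7:142575529-142578143) had 229, 231, 263 and 275 CPM in the cKO libraries, against 250, 264, 223 and 277 CPM in the control libraries. The groups overlapped over most of their range. The log2 fold change was -0.02 with 95% limits from -0.18 to 0.13 (edgeR adjusted p = 0.887). Its sign turned without cKO replicate 1 (0.02), cKO replicate 2 (0.01) or control replicate 4 (0.02). Within each library, the ratio of Igf2 to H19 counts was higher in the cKO, at 0.359 ± 0.0213 in the cKO libraries and 0.123 ± 0.0126 in the control libraries (SD, n = 4 each). The first exon of H19 holds the hairpin of miR-675, which restrains growth in the mouse placenta. The hairpin has its own row in the table, from reads of long RNA, with a log2 fold change of -0.06 (edgeR adjusted p = 0.833). The mature RNAs of miR-675 from RefSeq (GRCm38.p6), with the seed (bases 2 to 8) in capitals, show what lies in that row.
mmu-miR-675-5p: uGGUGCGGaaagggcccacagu
mmu-miR-675-3p: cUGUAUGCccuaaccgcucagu
The row counts reads of the precursor region and says nothing of the amount of either mature RNA.

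**Figure D2:**
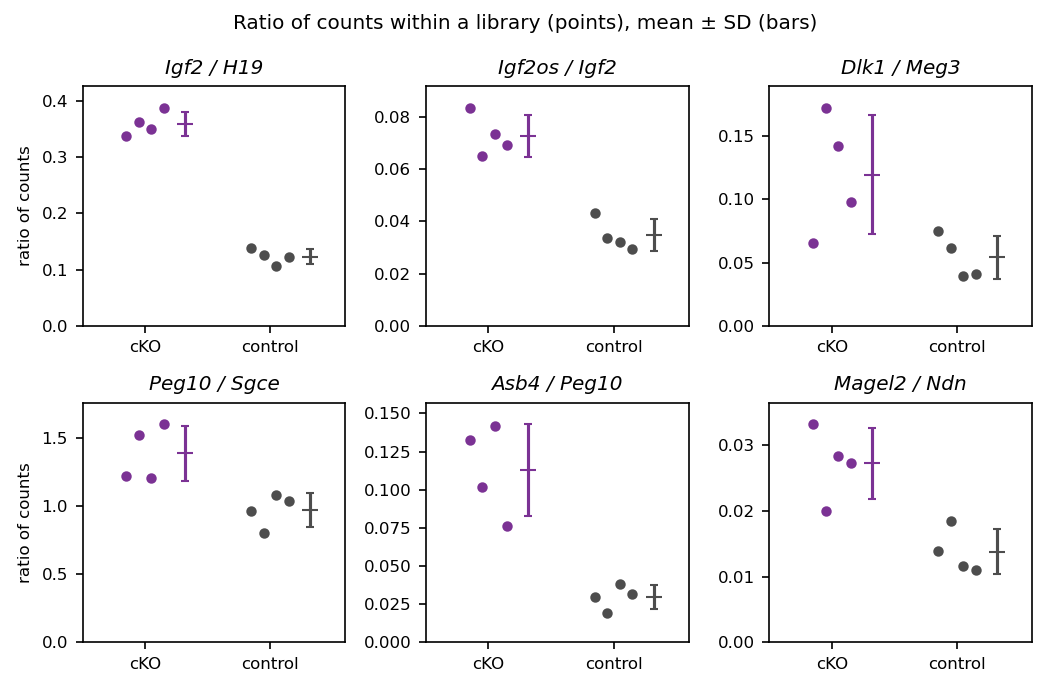
Ratio of the counts of 2 genes of the same cluster within each library, for 6 gene combinations, with cKO libraries left and control libraries right (n = 4 each). Points are libraries and bars show the mean ± SD. The ratio of Igf2 to H19 was 0.359 in the cKO and 0.123 in the control, and of the 6 ratios drawn Dlk1 to Meg3 is the 1 whose groups overlap.

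Igf2 is also abundant in mesenchyme, so the markers of that cell type are set beside it. Of 14 mesenchyme markers, 12 were tested and 6 rose (among them Col5a1, Pdgfra, Twist1 and Prrx1). The median log2 fold change of the 12 was 0.69. The collagens Col1a1, Col1a2 and Col3a1 and the matrix protein Postn were not called (log2 fold changes of 0.17, 0.21, 0.72 and 0.66). The 14 markers summed to 76.8 to 134 CPM in the cKO libraries and to 62.6 to 101 CPM in the control libraries, with Lum at 0 in cKO replicate 1 and Twist1 at 0 in control replicate 1 and no other marker at 0 in any library. In cKO replicates 1 to 4 the sum was 76.8, 105, 130 and 134 CPM, and Igf2 rose in the same order (77.3, 83.5, 92.1 and 106 CPM). In control replicates 1 to 4 the sum was 75.9, 101, 62.6 and 98.35 CPM, and Igf2 was 34.5, 33.1, 23.9 and 33.9 CPM. The sum in cKO replicate 1 was inside the control range, and Igf2 in that library was above every control library. Decorin (Dcn), an imprinted gene of the placenta that codes for a matrix proteoglycan of mesenchyme, had 0.430, 0.905, 2.43 and 1.42 CPM in the cKO libraries, against 0.674, 0.720, 0.631 and 1.45 CPM in the control libraries. Dcn was low and variable in both genotypes, and the groups overlapped (log2 fold change 0.50, SE 0.44, edgeR adjusted p = 0.555). The part of mesenchyme in the Igf2 difference was not tested beyond these values.

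The receptors, binding proteins and RNA-binding proteins of the insulin-like growth factor pathway did not move as a block. Of 13 other pathway genes tested, Igfbp3 rose, Igfbp5, Igf2bp1 and Igf2bp3 fell, and 9 were not called, among them the signalling receptor Igf1r. Igfbp3, which codes for a binding protein that holds IGFs in the extracellular fluid, averaged 4.26 ± 0.644 CPM in the cKO libraries and 1.31 ± 0.0847 CPM in the control libraries (SD, n = 4 each; log2 fold change 1.68, edgeR adjusted p = 9.89e-06). The 3 decreases were smaller, with log2 fold changes of -0.32 for Igfbp5, -0.27 for Igf2bp1 and -0.20 for Igf2bp3, and each was lost under some of the 17 alternatives, including males alone (edgeR adjusted p of 0.318, 0.206 and 0.220).

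Igf2r, the imprinted receptor that clears IGF2 and is maternally expressed in most tissues, was not called. It had 119, 103, 103 and 125 CPM in the cKO libraries, against 108, 116, 116 and 116 CPM in the control libraries. The cKO libraries spread to both sides of the control libraries. Its log2 fold change was -0.02 with 95% limits from -0.15 to 0.11, and it was positive with total counts alone, with sex as a covariate, in males alone and without cKO replicate 2 or 3. The ratio of Igf2 to Igf2r counts was 0.802 ± 0.108 in the cKO libraries and 0.276 ± 0.0484 in the control libraries (SD, n = 4 each).

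All 5 genes of the Dlk1-Meg3 cluster on chromosome 12 had positive fold changes, and 3 of them rose in the cKO retina. This cluster codes for paternally expressed proteins (Dlk1, a transmembrane ligand related to Notch ligands, and Rtl1, a protein derived from a retrotransposon) and for long maternally expressed noncoding RNAs (Meg3, Rian and Mirg). Rian is the host of many small nucleolar RNAs and Mirg of many microRNAs. Rian (chr12:109603940-109661716) had 91.3, 92.1, 88.4 and 85.6 CPM in the cKO libraries, against 65.5, 60.6, 54.7 and 60.8 CPM in the control libraries. The groups were separate and each was tight, which gave a log2 fold change of 0.56 (SE 0.06, edgeR adjusted p = 1.16e-05).

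Meg3 (chr12:109541001-109571726) had 15.6, 12.95, 18.5 and 23.4 CPM in the cKO libraries, against 12.1, 12.8, 8.91 and 13.6 CPM in the control libraries. The lowest cKO library lay within the control range. At 2 decimals the log2 fold change was that of Rian, 0.56, but with a larger error (SE 0.16, edgeR adjusted p = 0.0327). The call was lost in 5 of the 17 alternatives, all of them with 1 library left out. The edgeR adjusted p was 0.0800 without cKO replicate 3 and 0.0854 without cKO replicate 4. It was 0.0634 without control replicate 1, 0.0517 without control replicate 2 and 0.101 without control replicate 3. The ratio of Rian to Meg3 counts was 5.35 ± 1.48 in the cKO libraries and 5.19 ± 0.758 in the control libraries (SD, n = 4 each) and overlapped.

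Dlk1 (chr12:109452823-109463336) was the least abundant of the 30 genes per length in the control libraries. It had 19, 32, 40 and 37 counts in the cKO libraries, or 1.02, 2.23, 2.62 and 2.29 CPM. It had 12, 12, 5 and 10 counts in the control libraries, or 0.899, 0.786, 0.351 and 0.557 CPM. The groups did not overlap, but cKO replicate 1 was close to the highest control library. The log2 fold change was 1.63 with a wide error (SE 0.33, edgeR adjusted p = 0.00397). In males alone, with 2 cKO and 4 control libraries, it was 1.33 and the edgeR adjusted p was 0.0628, so the call was lost there, and with sex as a covariate the adjusted p was 0.0496.

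Mirg had 3.49, 4.11, 3.54 and 3.28 CPM in the cKO libraries, against 3.59, 1.83, 1.96 and 2.12 CPM in the control libraries. Control replicate 1 was at the level of the cKO libraries and the other 3 control libraries were lower. The log2 fold change of 0.61 was not called (SE 0.20, edgeR adjusted p = 0.0571). It was called without control replicate 1 (log2 fold change 0.86, adjusted p = 0.00350), without the lens crystallin libraries (0.80, adjusted p = 0.0111) and with total counts alone (0.64, adjusted p = 0.0347). Rtl1 had 14 to 26 counts in the cKO libraries and 7 to 16 counts in the control libraries and overlapped between the groups (log2 fold change 0.55, SE 0.31, edgeR adjusted p = 0.313).

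Rtl1 is known to be cut by microRNAs made from the opposite strand of its own locus on the maternal copy. The RefSeq annotation places 6 microRNA hairpins on the strand opposite to Rtl1, 14 within Mirg, 3 within Rian and 1 within Meg3, and none of these has a row in the deposited table. The mature sequences of some of the microRNAs opposite to Rtl1 are given with the seed in capitals, since they read as the complement of the transcript that they face.
mmu-miR-431-5p: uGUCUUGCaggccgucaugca
mmu-miR-433-3p: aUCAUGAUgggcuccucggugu
mmu-miR-127-3p: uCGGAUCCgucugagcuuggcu
mmu-miR-434-3p: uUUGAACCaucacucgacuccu
These seeds differ from each other, and the levels of the microRNAs were not measured here.

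**Figure D3:**
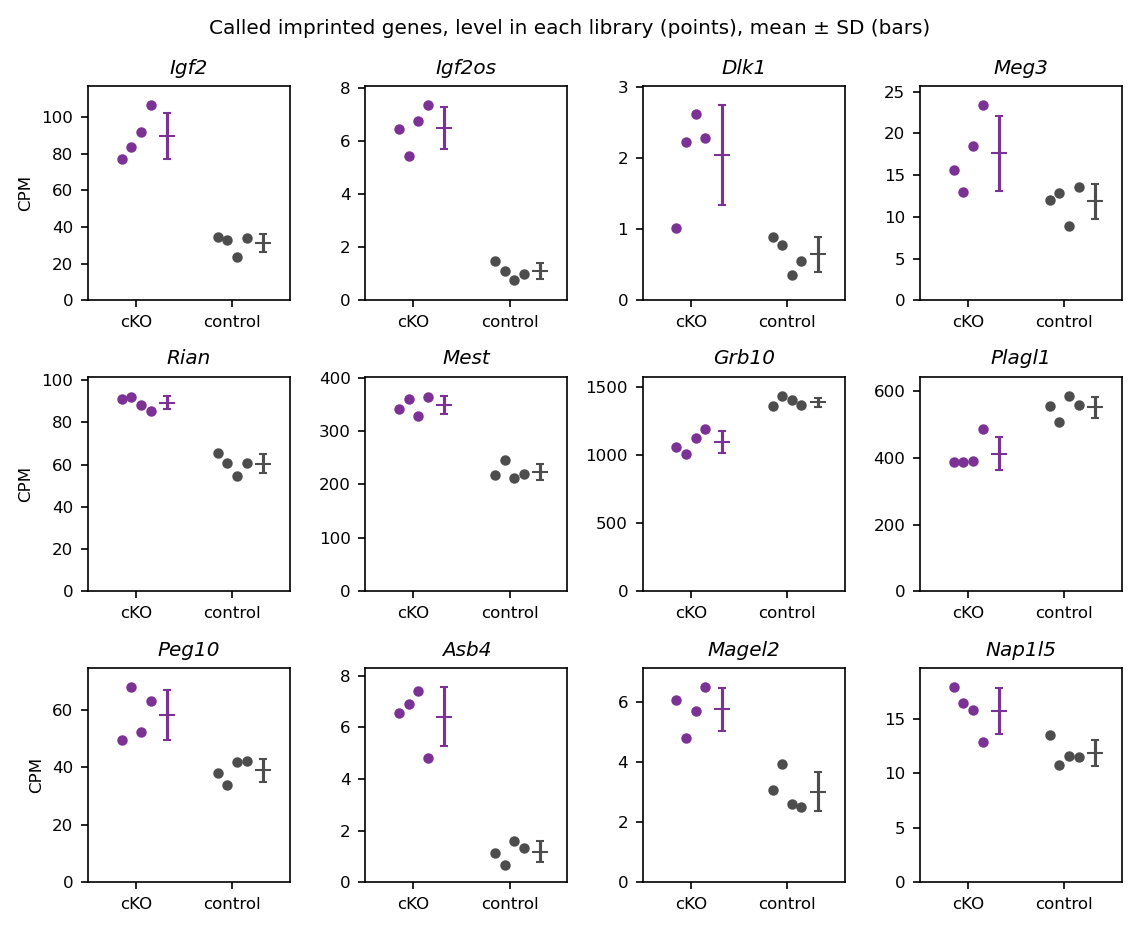
Level in CPM of the 12 imprinted genes called, with the cKO libraries left and the control libraries right in each panel (n = 4 each, axes from 0). Points are libraries and bars show the mean ± SD. The groups overlap for Meg3 and Nap1l5 and are separate for the other 10 genes, and Grb10 and Plagl1 are lower in the cKO.

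In the Peg10-Sgce cluster on chromosome 6, Peg10 and Asb4 rose and Sgce, which starts beside Peg10 on the other strand, was not called. Asb4 is the maternally expressed gene of the set in this cluster and codes for a substrate adaptor of a ubiquitin ligase. Asb4 (chr6:5383386-5433022) had 6.56, 6.89, 7.41 and 4.82 CPM in the cKO libraries, against 1.12, 0.655, 1.61 and 1.34 CPM in the control libraries. The groups were far apart, with a log2 fold change of 2.43 (SE 0.21, edgeR adjusted p = 2.67e-06), the second largest of the 30.

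Peg10 (chr6:4747306-4760517), a paternally expressed gene derived from a retrotransposon and needed for the mouse placenta, had 49.5, 67.8, 52.4 and 63.2 CPM in the cKO libraries, against 38.0, 33.9, 42.0 and 42.3 CPM in the control libraries. The groups were separate but closer than for Asb4, with a log2 fold change of 0.57 (SE 0.10, edgeR adjusted p = 0.00115). Sgce, which codes for the membrane protein epsilon-sarcoglycan and shares the control region of Peg10, had 39.5 to 44.5 CPM in the cKO libraries and 38.9 to 42.2 CPM in the control libraries. Its log2 fold change was 0.06 with 95% limits from -0.07 to 0.18 (edgeR adjusted p = 0.612), and -0.01 both with sex as a covariate and in males alone. The ratio of Asb4 to Peg10 counts was 0.113 ± 0.0299 in the cKO libraries and 0.0297 ± 0.00789 in the control libraries, so the 2 called genes of this cluster rose by unequal factors (SD, n = 4 each).

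Further genes with reported imprinting lie in this region, of which Pon2, a paraoxonase gene, rose by 0.21 on the log2 scale (edgeR adjusted p = 0.0415, called in 5 of 17 alternatives). Pon3, Ppp1r9a and Casd1 were not called.

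**Figure D4:**
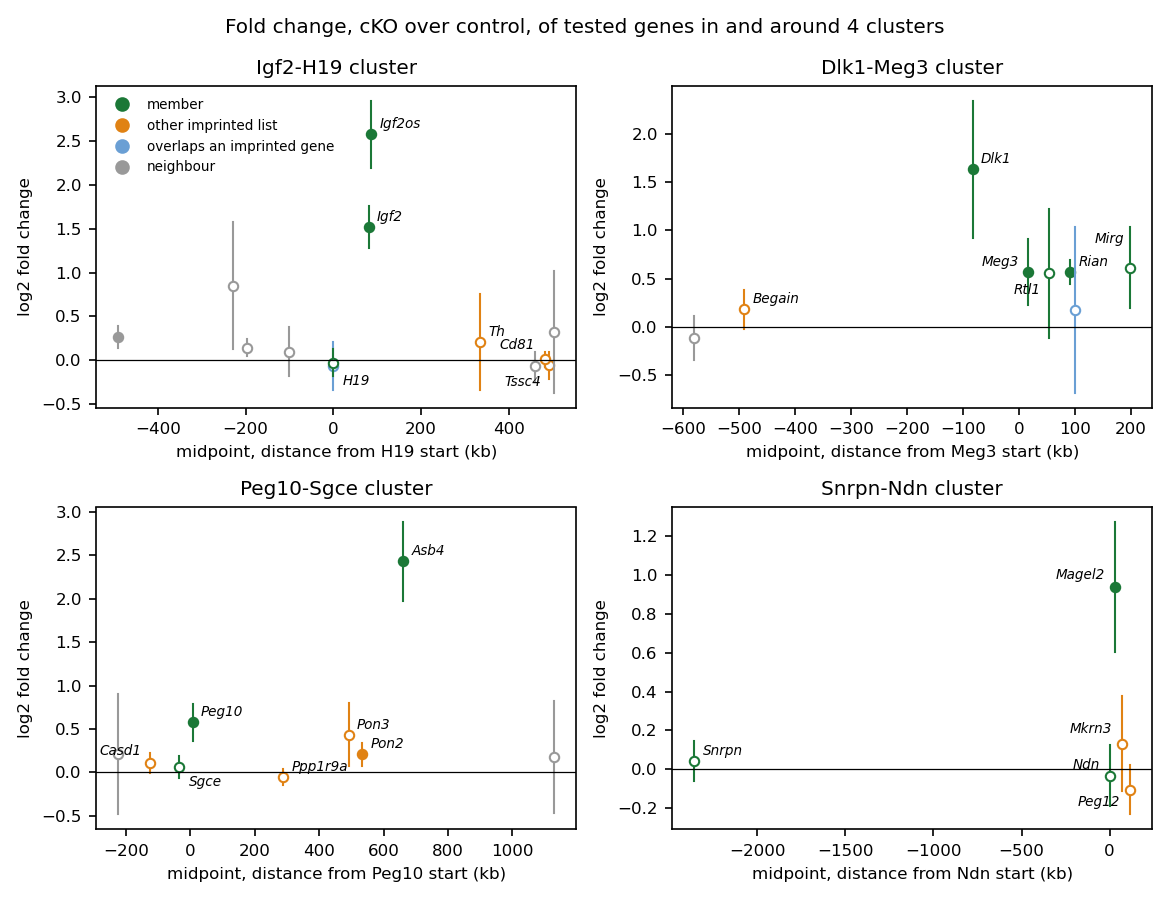
Log2 fold change, cKO over control, of tested genes within 500 kb of 4 clusters. The horizontal axis is the distance of the midpoint from the start of an anchor gene in kb. Genes without matched coordinates, such as Snurf, are not drawn. Bars are 95% limits and filled points passed an adjusted p of 0.05. Green marks the imprinted genes described here, orange other genes with reported imprinting, blue rows that overlap an imprinted gene and grey other neighbours. Igf2 and Igf2os, Dlk1, Asb4 and Magel2 stand above genes nearby that were not called, such as H19, Sgce and Ndn.

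In the Snrpn-Ndn cluster on chromosome 7, which corresponds to the human Prader-Willi region, Magel2 rose and its neighbours did not pass the test. Magel2 codes for a MAGE family protein that acts with a ubiquitin ligase in endosome sorting. Magel2 (chr7:62377010-62381640) had 6.07, 4.80, 5.71 and 6.49 CPM in the cKO libraries, against 3.07, 3.93, 2.60 and 2.51 CPM in the control libraries. The groups were separate, with a log2 fold change of 0.94 (SE 0.16, edgeR adjusted p = 0.000903). Ndn, the related MAGE gene beside it and far more abundant, averaged 215 ± 28.0 CPM in the cKO libraries and 220 ± 6.39 CPM in the control libraries (log2 fold change -0.03, edgeR adjusted p = 0.844; 0.04 without cKO replicate 1). Snrpn, which codes for a protein of the spliceosome, averaged 146 ± 2.63 CPM in the cKO libraries and 141 ± 9.54 CPM in the control libraries (log2 fold change 0.04, edgeR adjusted p = 0.662; SD, n = 4 each). Mkrn3 and Peg12, other paternally expressed genes next to Magel2, were not called either (log2 fold changes of 0.13 and -0.10).

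Mest and Nap1l5, paternally expressed genes that lie alone in their clusters here, also rose. Mest (chr6:30723547-30748465), which codes for an enzyme of the alpha/beta hydrolase fold, had 341, 360, 328 and 363 CPM in the cKO libraries, against 218, 245, 212 and 220 CPM in the control libraries. The groups were separate, with a log2 fold change of 0.64 (SE 0.05, edgeR adjusted p = 2.08e-06). Its 3′ end shares 912 exon bases with Copg2 on the opposite strand, 23.1% of the Mest exons, and Copg2 was also higher (log2 fold change 0.29, edgeR adjusted p = 0.000645). The ratio of Mest to Copg2 counts was 1.39 ± 0.0519 in the cKO libraries and 1.09 ± 0.0632 in the control libraries (SD, n = 4 each). No source used here says how reads in the shared part were assigned.

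Nap1l5 (chr6:58905233-58907076), a gene without introns that lies within Herc3 and is related to nucleosome assembly proteins, had 17.9, 16.4, 15.8 and 12.9 CPM in the cKO libraries, against 13.6, 10.8, 11.6 and 11.5 CPM in the control libraries. The lowest cKO library was below the highest control library. For Nap1l5 the log2 fold change was 0.42 (SE 0.11, edgeR adjusted p = 0.0174), and the call was lost in 5 of 17 alternatives. The adjusted p was 0.0593 without cKO replicate 1, 0.0589 without control replicate 2 and 0.0513 without control replicate 4. With sex as a covariate it was 0.104, and in males alone 0.123.

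The 2 genes that fell, Grb10 and Plagl1, were among the most abundant of the set. Grb10 codes for an adaptor that dampens signalling from the insulin and IGF1 receptors and is maternally expressed in most tissues but paternally in neurons. Grb10 (chr11:11930508-12038683) had 1057, 1009, 1123 and 1191 CPM in the cKO libraries, against 1356, 1427, 1398 and 1364 CPM in the control libraries. The groups were separate, with a log2 fold change of -0.34 (SE 0.06, edgeR adjusted p = 0.00165).

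Plagl1 (Zac1), a paternally expressed zinc finger transcription factor that restrains proliferation and is known to limit cell numbers in the mouse retina, fell by a similar amount. Plagl1 (chr10:13060504-13131694) had 388, 387, 390 and 486 CPM in the cKO libraries, against 556, 507, 584 and 559 CPM in the control libraries. In 3 cKO libraries it was nearly equal, cKO replicate 4 was higher, and all were below the control libraries. Plagl1 had a log2 fold change of -0.42 (SE 0.07, edgeR adjusted p = 0.00145). Of the 13 retina markers, 5 fell (among them the progenitor gene Fgf15 and the ganglion cell genes Atoh7, Pou4f2 and Isl1), 2 rose (the photoreceptor genes Crx and Otx2) and 6 were not called. The part of these cell types in the Grb10 and Plagl1 differences was not tested.

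The other 10 imprinted genes had fold changes between -0.07 and 0.31 on the log2 scale, and none was called in the edgeR test. In the Peg3 cluster none of 3 genes was called in the edgeR test. Peg3, a zinc finger gene, averaged 212 ± 20.1 CPM in the cKO libraries and 210 ± 2.93 CPM in the control libraries (SD, n = 4 each). Its log2 fold change was 0.02 (edgeR adjusted p = 0.912) and turned negative without the lens crystallin libraries (-0.04) and without cKO replicate 2 (-0.03) or 4 (-0.02). Usp29, a deubiquitinase gene that starts next to Peg3, and the maternally expressed zinc finger gene Zim1 had log2 fold changes of 0.08 (95% limits -0.12 to 0.29) and 0.20 (-0.23 to 0.63). The value for Zim1 was -0.01 without the lens crystallin libraries.

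Nnat, which codes for a small protein of the endoplasmic reticulum, was the most abundant of the set per length of transcript and had 1114, 1165, 1216 and 1168 CPM in the cKO libraries, against 1055, 1056, 1036 and 1125 CPM in the control libraries. The lowest cKO library was just below the highest control library. The log2 fold change was 0.13 (SE 0.06, edgeR adjusted p = 0.173). A microRNA row on the opposite strand of its last exon, Gm23134, was called higher at 0.16 (edgeR adjusted p = 0.0184), and its 87 bases all lie within Nnat. Gm23134 had 8832 counts over the cKO libraries and 7484 over the control libraries, against 74925 and 65194 for Nnat. The part of Nnat RNA in the Gm23134 count was not tested.

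Gnas, which codes for the stimulatory G protein alpha subunit and other products, averaged 730 ± 28.5 CPM in the cKO libraries and 755 ± 15.8 CPM in the control libraries (SD, n = 4 each; log2 fold change -0.05, edgeR adjusted p = 0.636). The gene Gm20721 on the opposite strand of Gnas shares 1469 of its 1484 exon bases with it. Its count was 98.9% to 99.1% of the Gnas count in each library. Reads at this locus were thus counted for genes on both strands, and whether the same holds for the other imprinted genes with antisense partners was not tested.

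Slc38a4, an amino acid transporter gene with noncanonical imprinting in the mouse placenta, had 17.3, 17.4, 11.9 and 13.1 CPM in the cKO libraries, against 9.51, 16.6, 11.6 and 10.3 CPM in the control libraries. The groups overlapped through control replicate 2 (log2 fold change 0.31, edgeR adjusted p = 0.262). Without that library the log2 fold change was 0.51 and the call was made (adjusted p = 0.0307). Nap1l4, a histone chaperone gene, and Zrsr1, a splicing factor gene within Commd1, had log2 fold changes of 0.05 and 0.11. Impact, an inhibitor of the kinase GCN2, and Zdbf2, a gene marked early in the embryo, had log2 fold changes of -0.06 and -0.07.

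Levels can be set side by side between genes per length of transcript, as FPKM (fragments scaled by gene length and library size) from the authors' table. The 30 genes spanned from Nnat, at 642 ± 29.3 FPKM in the cKO libraries and 580 ± 43.9 FPKM in the control libraries, down to Rtl1 and Dlk1 (SD, n = 4 each). Rtl1 had 0.195 ± 0.0657 FPKM in the cKO libraries and 0.129 ± 0.0429 FPKM in the control libraries. Dlk1 had 0.363 ± 0.126 FPKM in the cKO libraries and 0.114 ± 0.0423 FPKM in the control libraries, where its range overlapped that of Rtl1. In the control libraries Nnat was followed by Grb10, Ndn, H19 and Nap1l4. The control ranges of Grb10 (142 to 161 FPKM) and Ndn (127 to 142 FPKM) touched, while in the cKO libraries Ndn (112 to 148 FPKM) and Grb10 (108 to 135 FPKM) overlapped broadly. Mest rose past Plagl1, Gnas and Snrpn, at 89.1 ± 4.38 FPKM in the cKO libraries and 56.4 ± 5.66 FPKM in the control libraries. Igf2 stood at 15.8 ± 2.50 FPKM in the cKO libraries, level with Peg3 (16.0 ± 1.42 FPKM). In the control libraries Igf2 stood at 5.45 ± 0.986 FPKM, level with Zdbf2 (5.48 ± 0.214 FPKM). Igf2os and Asb4, the 2 genes with the largest fold changes, stayed low. Asb4 had 1.97 ± 0.327 FPKM in the cKO libraries and 0.355 ± 0.117 FPKM in the control libraries, and Igf2os had 1.23 ± 0.180 FPKM in the cKO libraries and 0.203 ± 0.0536 FPKM in the control libraries.

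Of 31 further genes with reported imprinting that were tested, 5 rose, none fell in the edgeR test and 26 were not called, with a median log2 fold change of 0.09. Cdkn1c, the maternally expressed inhibitor of cyclin-dependent kinases in the Kcnq1ot1 cluster, had 168, 172, 183 and 172 CPM in the cKO libraries, against 130, 116, 124 and 122 CPM in the control libraries. It was separate between the groups (log2 fold change 0.50, SE 0.05, edgeR adjusted p = 3.87e-06), whereas Nap1l4 of the same cluster was not called. Dio3, the deiodinase gene at the end of the Dlk1-Meg3 cluster, rose by 0.46 (edgeR adjusted p = 0.00197). The remaining increases were Sfmbt2, Pon2 (called in 5 of 17 alternatives) and Copg2, which shares 912 exon bases with Mest on the opposite strand. Sfmbt2, a Polycomb-related gene with noncanonical imprinting, rose by 0.58 (edgeR adjusted p = 0.00502; 0.0693 in males alone). Gab1 and Smoc1, other noncanonical genes, had log2 fold changes of -0.19 and 0.12 and were not called.

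Of 13 genes that keep or read the imprint, Uhrf1, which brings the DNA methyltransferase DNMT1 to replicating DNA, fell by 0.33 on the log2 scale (edgeR adjusted p = 0.00433; 0.0616 with sex as a covariate). The other 12, among them Zfp57, Trim28, Dnmt1 and Ctcf, were not called.

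Genes with matched coordinates within 500 kb of the imprinted genes were also counted. Genes on any list of imprinted genes here were left out, as were 6 whose span overlaps that of an imprinted gene. Of the 99 genes kept and tested, 5 were higher and 5 lower, or 10.1%, where 11.8% of all genes tested were called in either direction. Dusp8, B3gnt2, Nrp2, Amigo2 and Abcg2 were higher, and Fignl1, Rbl1, Samhd1, Cars and Fam161a were lower. Of these 10 calls, 4 (B3gnt2, Nrp2, Fignl1 and Rbl1) were made under all 17 alternatives, and the other 6 were lost both with sex as a covariate and in males alone. Neither the 1 neighbour of Dlk1-Meg3, the 2 of Peg10-Sgce, the 6 of Mest nor the 8 of Plagl1 was called in the edgeR test. Igf2-H19 had 6 neighbours, of which Dusp8 had a log2 fold change of 0.26.

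Markers of other cell types moved in part with the genotype. The 9 microglia markers summed to 46.9 to 54.3 CPM in the cKO libraries and to 34.2 to 40.5 CPM in the control libraries, with 4 of 8 tested higher (Cx3cr1, C1qb, Tyrobp and P2ry12). The 6 endothelial markers in the table summed to 269 to 320 CPM in the cKO libraries and to 335 to 363 CPM in the control libraries, with Kdr lower and Cldn5 and Egfl7 higher among 5 tested. The other 4 of the 10 endothelial markers listed have no row. The median log2 fold change of the 5 tested was 0.14, in the other direction from the sum. Pericyte, erythroid, pigment epithelium and lens markers overlapped between the groups in their summed level, and of these Cspg4 of the pericytes was called, as higher. The part of these cell types in the imprinted gene differences was not tested.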

How the data were processed

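RNA was sequenced from 4 cKO and 4 control libraries of peripheral retina. The authors aligned reads with Novoalign 2.08.01 to mm10 per the submitters' processing notes, which also name DESeq2. No source used here gives the counter, the annotation or the use of strand. The deposited table has whole-number counts for 16096 genes, not normalized, with a lowest row sum of 18. The authors also deposited FPKM values, scaled by gene length and depth, used here for levels between genes alone. The authors' deposited log2 ratio and a deposited score for adjusted significance, whose scale is not named, were not used in any test; for Igf2 the authors' deposited table gives a log2 ratio of 1.42.

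Every gene was tested with edgeR 4.0.16 (R 4.3.3, limma 3.58.1) on the counts, with TMM normalization, filterByExpr, glmQLFit and glmQLFTest, no covariate, and Benjamini-Hochberg adjustment over 15014 genes at 0.05. CPM values use normalized library sizes, except sums over marker lists, which use total counts. Each standard error was derived from the F statistic of the test. The procedure was checked on counts simulated from the means and dispersions fitted to these data. The simulation held no sex effect and no outlying library, so this check does not cover them. Coordinates came from GENCODE release 21 for mouse (mm10), with 15833 identifiers matched and 263 not. Promoter and microRNA sequences came from RefSeq (GRCm38.p6); 9 of the 34 genes had no window.

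The genes, clusters, parental alleles and lists were chosen with earlier results of these data known. Every imprinted gene in the table is named, and of the other lists each gene called, except certain marker genes that are not reported here. The window of 500 kb for neighbours and the gene ratios were chosen after the data were seen. Counts of Xist and of Y-linked genes gave the sex of each library. Both female libraries are cKO, so sex as a covariate and males alone draw the genotype difference from the same male libraries. For Igf2 the log2 fold changes in these settings were 1.547 and 1.546. There were 17 alternatives: other normalizations, no filter, DESeq2 1.42.0, the replicate number as a block, sex as a covariate, males alone, leaving out the libraries with lens crystallin counts (cKO replicate 2 and control replicate 1), and leaving out each library in turn. Depth limits the genes with few reads, such as Dlk1, Rtl1 and Dcn. No column was left without a sample.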

Additional observations from a re-analysis of the deposited data

Results flagged for a closer look

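In 7 of the 60 groups of 4 libraries (30 genes in 2 genotypes), 1 library stood apart from the other 3 by Dixon's test, which chance alone does in about 1 in 20 groups. Of the called genes, Igf2 had 23.9 CPM in control replicate 3, below the other control libraries, and Plagl1 had 486 CPM in cKO replicate 4, above the other cKO libraries. Both calls were made without these libraries too. Mirg had 3.59 CPM in control replicate 1, above the other control libraries, and was called once that library was left out. Among genes that were not called, Igf2r had 108 CPM in control replicate 1, below the other control libraries. Usp29 had 14.2 CPM in cKO replicate 4, below the other cKO libraries, and 17.5 CPM in control replicate 1, above the other control libraries. Dcn had 1.45 CPM in control replicate 4, above the other control libraries.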

How the results depend on the processing

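Under the 17 alternatives, the count of imprinted genes called higher ran from 8 (males alone) to 11, against 10, and 2 were called lower throughout. Over all genes, 795 were higher with sex as a covariate and 800 in males alone, against 1253, and leaving out 1 library at a time gave 1008 to 1233. Genes called lower numbered 273 with total counts alone, where 82.5% of the calls were higher against 70.7%. They numbered 246 with sex as a covariate, 255 in males alone and 323 without the lens crystallin libraries, against 520, and 329 (without control replicate 3) to 667 (without cKO replicate 4) with 1 library left out. Of the other imprinted genes, 3 were called higher both with sex as a covariate and in males alone, against 5. Against 0 called lower by edgeR, 1 was called with DESeq2 and 0 to 2 with 1 library left out, the 2 being without cKO replicate 4. The cause of these shifts was not tested, beyond the smaller number of libraries in the alternatives that leave some out.

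Genes near 0 changed sign. Igf2r was 0.0027 with total counts alone, 0.0942 with sex as a covariate and 0.0939 in males alone. Sgce was -0.0097 with sex as a covariate and -0.0099 in males alone. Without the lens crystallin libraries H19 was 0.0044, Peg3 -0.0351 and Zim1 -0.0086. With 1 library left out, H19 ran from -0.0816 to 0.0205, Igf2r from -0.0742 to 0.0192, Peg3 from -0.0270 to 0.0665 and Ndn from -0.0901 to 0.0399. The other 24 of the 30 imprinted genes kept their sign.

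Replicate numbers are shared by the genotypes, and the labels do not say that a number marks a shared litter or batch. The deviations of same-numbered libraries correlated for numbers 1 and 4 (r of 0.244 each) but not for 2 and 3 (r of -0.062 and 0.005, over 11686 genes). In numbers 2 and 3 the cKO library is female and the control library male, and the part of sex in these values was not tested. Correlations between libraries of different numbers are not reported here, so these values cannot decide whether a number pairs libraries. The numbers were not taken to pair the libraries. With the replicate block, 10 imprinted genes were called higher and 2 lower, and 1179 and 497 of all genes.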
